A study of Homo sapiens with 19 samples.

Results

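miR-423 is made from a single hairpin that leaves behind 2 mature miRNAs, hsa-miR-423-5p and hsa-miR-423-3p, and both were followed here through cells and the extracellular fractions of their medium. They were selected by name as 2 of the 1043 mature human miRNAs listed in the series, and both passed the filter on low counts that left 227 miRNAs for testing. The cells were Caco-2, an established human colorectal epithelial line without genetic modification, grown with 20% serum to 80% confluence and then kept for 24 h in medium free of serum and antibiotics. Small RNA libraries came from the supernatant of a 100000 xg spin (S100, 3 libraries used), the pellet of that spin (P100, 4), the pellet of a preceding 40000 xg spin (P40, 4), unfractionated extracellular RNA (total exRNA, 4) and cell lysate (3). RNA of S100 and total exRNA was precipitated before Trizol whereas RNA of P100, P40 and lysate went into Trizol directly, so fraction and preparation cannot be told apart where these kinds are compared.

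After Dicer cuts a hairpin, an Argonaute protein keeps 1 strand of the duplex as the guide and the other is usually lost, so that most hairpins show a major and a minor arm. The choice is known to depend on the 5′ base and on how firmly each 5′ end is paired. Many miRNAs, miR-423 among them, yield stable miRNAs from both arms. miR-423-5p is widely studied in blood, where it has been described as a marker of heart failure, and miR-423-3p is a common reference miRNA for qPCR of plasma and serum. Outside cells, miRNAs occur within vesicles, which sediment at high speed, and in complexes with proteins such as Argonaute, which mostly remain in the supernatant.

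The sequences below, taken from RefSeq (GRCh38.p14), are shown because the arms differ in seed and in first base, and because the locus is also annotated on the other strand. Bases 2 to 8, the seed through which a miRNA recognises its targets, are in capitals.
miR-423-5p: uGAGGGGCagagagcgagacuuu
miR-423-3p: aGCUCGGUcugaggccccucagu
miR-3184-5p: uGAGGGGCcucagaccgagcuuuu
miR-3184-3p: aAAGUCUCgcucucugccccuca
Both arms of miR-423 have 23 bases. The 5p arm begins with U and holds 13 G or C bases, while the 3p arm begins with A and holds 15. In a fold of the hairpin predicted with RNAfold, 17 bases of the 5p arm paired with the 3p arm. The hairpin lies at chr17:30117079-30117172 on the plus strand, with the 5p arm at chr17:30117095-30117117 and the 3p arm at chr17:30117131-30117153. It sits inside NSRP1, which encodes a nuclear speckle protein that regulates splicing. Of the 12 NSRP1 transcripts in GENCODE release 29 that span it, 11 place it in an intron and 1 places it in an exon, within an untranslated region.

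MIR3184 is annotated at chr17:30117086-30117160 on the minus strand, so that miR-3184-3p is complementary to miR-423-5p. miR-3184-5p was the only miRNA in the RefSeq table to share the seed of miR-423-5p, and no miRNA there shared that of miR-423-3p. A single count of miR-3184-5p, in S100 replicate 3, and no count of miR-3184-3p were listed in the whole series. How strand was handled in counting is not given in the sources used here.

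The 18 libraries used held 10017 to 225290 counts, and the deepest were those of S100 (198878 to 225290). In the smallest library 3 counts equal 299 CPM, a count divided by its library's total on a common scale, and every library used had at least 62 counts of miR-423-5p and 93 of miR-423-3p. S100 replicate 1 held 48 counts and was left out. It contained 3 counts of miR-423-5p and 1 of miR-423-3p. All 6 epithelial markers (miR-192-5p, miR-194-5p, miR-215-5p, miR-200b-3p, miR-200c-3p and miR-141-3p) were counted in lysate, where they summed to 4.26% to 5.40% of counts. Most of this was miR-200c-3p, with 10988 counts over the lysate libraries. The gut miRNAs miR-192-5p, miR-194-5p and miR-215-5p had 1440, 409 and 216 counts there, and miR-200b-3p and miR-141-3p had 309 and 237. The 4 leukocyte markers summed to at most 0.00191% in lysate and 0.133% in any library. The P40 libraries were not uniform: the mean Spearman correlation with total exRNA was 0.846 and 0.833 in replicates 1 and 2 and 0.752 and 0.748 in replicates 3 and 4. With the other P40 libraries it was 0.822, 0.831, 0.820 and 0.800 in replicates 1 to 4. With P100 it was 0.810, 0.803, 0.836 and 0.801. Replicates 1 and 2 were thus nearer to total exRNA than to the other P40 libraries, replicate 2 only slightly. Replicate 3 was nearer to P100, and replicate 4 was as near to P100 as to P40. Total exRNA replicate 2 correlated less with its group (0.837) than the other 3 (0.904 to 0.915). Whether the replicates are separate cultures is not in the labels. The p-values therefore measure the spread between these libraries, which may be technical.

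miR-423-5p was the arm that set S100 apart. hsa-miR-423-5p made up 5.90% ± 0.722 of counts in the 3 S100 libraries (mean ± SD), 1.159% ± 0.196 in the 4 P100 libraries, 0.990% ± 0.671 in the 4 P40 libraries, 0.715% ± 0.342 in the 4 total exRNA libraries and 0.588% ± 0.266 in the 3 lysate libraries. Its rank among all miRNAs was 4 or 5 in each S100 library, against ranks 14 to 17 in P100, 16 to 42 in P40, 19 to 46 in total exRNA and 21 to 45 in lysate. A share of counts does not give the amount in a fraction: more of this miRNA and less of the others cannot be told apart.

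To allow for differences in composition, CPM were scaled with TMM factors (trimmed mean of M values). On this scale miR-423-5p stood at 62431, 60844 and 58360 CPM in S100 replicates 2, 3 and 4. P100 replicates 1 to 4 had 13750, 9900, 11778 and 13899 CPM, and P40 replicates 1 to 4 had 3886, 3977, 14074 and 13125 CPM. Total exRNA replicates 1 to 4 held 3600, 10758, 5751 and 6581 CPM, and lysate replicates 1 to 3 held 10295, 8007 and 3045 CPM. Every S100 library thus lay above every library of the other groups, whose ranges overlapped one another. Within P40, replicates 3 and 4 stood at the level of P100 and replicates 1 and 2 near the lowest lysate library.

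**Figure D1:**
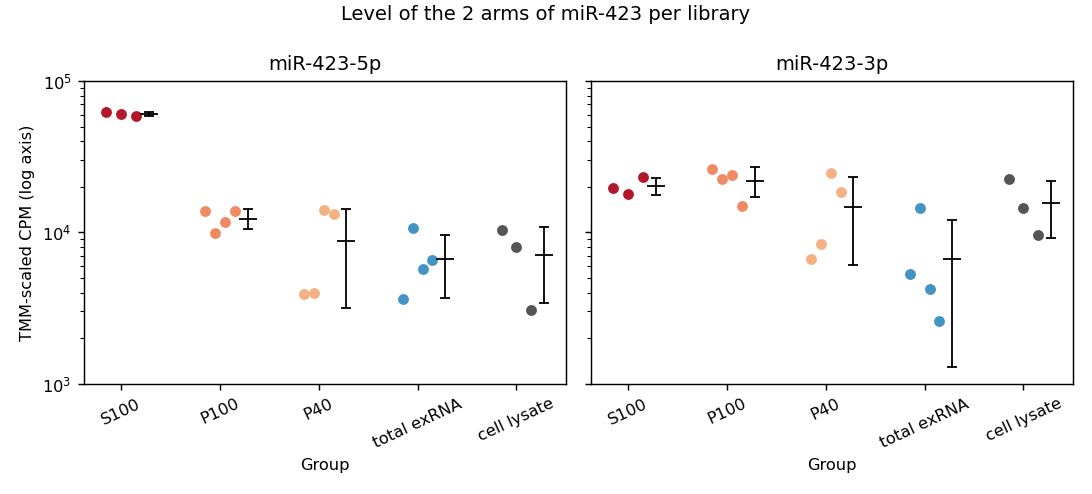
TMM-scaled CPM of miR-423-5p (left) and miR-423-3p (right) on a log axis, with a point for each library and a bar for the mean ± SD of each group. The 3 S100 libraries sit between 58360 and 62431 CPM for the 5p arm, above all other libraries, whereas for the 3p arm the S100 libraries lie within the range of P40.

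In edgeR's quasi-likelihood test across all miRNAs, miR-423-5p was higher in S100 than in lysate by a log2 fold change of 3.09 ± 0.51 (SE; Benjamini-Hochberg adjusted p = 2.68e-05), in a comparison in which 32.2% of the miRNAs tested were called higher. Without lysate replicate 1 the change was 3.84, and without the filter on low counts 3.86. The log2 fold changes of the 227 miRNAs also shifted in these fits, by a median of 0.32 and 0.69. It was higher than in total exRNA by 3.18 ± 0.46 (adjusted p = 6.04e-06; 29.5% of miRNAs called higher), and than in P40 by 2.79 ± 0.46 (adjusted p = 4.47e-05; 25.1% called higher). Against P40 the change was 3.58 without P40 replicate 3 and 3.75 without P40 replicates 3 and 4, an alternative chosen after seeing the data. The log2 fold changes of the shared miRNAs shifted by a median of 0.33 and -0.22 in these fits. Against P100 the rise was smallest, at 2.30 ± 0.45 (adjusted p = 0.000226; 28.6% called higher). Within batch numbers, which equal the replicate numbers, S100 was above lysate in both shared batches (by 2.96 and 4.31 on the log2 CPM scale). It was above P100, P40 and total exRNA in 3 of 3. These directions follow from every S100 library lying above every library of the other groups. The 4 comparisons share the S100 libraries.

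Among the other groups no difference in miR-423-5p passed the test. The log2 fold change was 0.79 ± 0.46 for P100 against lysate (edgeR adjusted p = 0.182), 0.31 ± 0.45 for P40 against lysate (adjusted p = 0.665) and -0.087 ± 0.45 for total exRNA against lysate (adjusted p = 0.908), in comparisons in which 37.4%, 26.9% and 35.2% of miRNAs were called in either direction. For P100 against total exRNA it was 0.88 ± 0.42 (adjusted p = 0.111; 27.8% called), for P40 against total exRNA 0.39 ± 0.42 (adjusted p = 0.568; 11.9% called) and for P100 against P40 0.49 ± 0.42 (adjusted p = 0.470; 4.85% called). Single libraries decided several of these values. Without lysate replicate 1 the change in P100 against lysate was 1.30 (adjusted p = 0.0440), and without total exRNA replicate 2 that in P100 against total exRNA was 1.26 (adjusted p = 0.0241). Leaving out P40 replicates 3 and 4 raised the difference of P100 against P40 to 1.51 (adjusted p = 0.0192), and leaving out P40 replicates 1 and 2 brought it to -0.077. In order of mean CPM the groups ran S100, P100, P40, lysate and total exRNA, and only the step between S100 and P100 passed the test.

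miR-423-3p followed a different order. The share of hsa-miR-423-3p was 1.95% ± 0.0646 of counts in the 3 S100 libraries (mean ± SD), 2.06% ± 0.425 in the 4 P100 libraries, 1.64% ± 1.01 in the 4 P40 libraries, 0.712% ± 0.593 in the 4 total exRNA libraries and 1.29% ± 0.404 in the 3 lysate libraries. After scaling, S100 replicates 2, 3 and 4 had 19578, 17936 and 23219 CPM, P100 replicates 1 to 4 had 26375, 22555, 23994 and 15015 CPM, and P40 replicates 1 to 4 had 6707, 8438, 24829 and 18502 CPM. Total exRNA replicates 1 to 4 stood at 5269, 14472, 4221 and 2582 CPM, and lysate replicates 1 to 3 at 22404, 14579 and 9666 CPM. Total exRNA was thus the lowest group apart from its replicate 2, the library with the lower correlation to its group. S100, P100, P40 and lysate overlapped, and P40 replicates 3 and 4 were again above replicates 1 and 2.

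For miR-423-3p the change in S100 against lysate was 0.38 ± 0.52 (edgeR adjusted p = 0.550) and did not pass the test, nor did that against P40 (0.47 ± 0.48, adjusted p = 0.436) or P100 (-0.12 ± 0.49, adjusted p = 0.844). The calls against lysate and P40 depended on the filter on low counts. Without it the changes were 1.14 (edgeR adjusted p = 0.0194) and 1.13 (edgeR adjusted p = 0.0139). The log2 fold changes of the 227 miRNAs in S100 against lysate then shifted by a median of 0.69. The changes in miR-423-3p against lysate and P40 did not pass in DESeq2 (0.79, adjusted p = 0.211, and 0.76, adjusted p = 0.209). Nor did they pass in edgeR with library size as the only scaling (0.60, adjusted p = 0.340, and 0.26, adjusted p = 0.673). Without P40 replicate 3 the change in S100 against P40 was 1.30 (edgeR adjusted p = 0.0420). It was 1.21 (edgeR adjusted p = 0.0439) without P40 replicates 3 and 4. The log2 fold changes of the shared miRNAs shifted by a median of 0.33 without P40 replicate 3 and of -0.22 without replicates 3 and 4. Against total exRNA the 3p arm was higher in S100 by 1.60 ± 0.49 (adjusted p = 0.00715) and in P100 by 1.72 ± 0.46 (adjusted p = 0.00756; 13.2% of miRNAs called higher there). After scaling, every S100 and every P100 library lay above every total exRNA library. As a share of counts, P100 replicate 4 (1.48%) lay below total exRNA replicate 2 (1.59%). Without total exRNA replicate 2 the changes in S100 and P100 were 2.38 and 2.48.

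The remaining comparisons of miR-423-3p did not pass. Total exRNA against lysate gave -1.22 ± 0.48 (edgeR adjusted p = 0.0564; 16.3% of miRNAs called lower), and -1.997 without total exRNA replicate 2 (adjusted p = 0.000535). P40 against total exRNA gave 1.14 ± 0.46 (adjusted p = 0.109), 1.91 without total exRNA replicate 2 (adjusted p = 0.00155), and 1.48 without P40 replicates 1 and 2 (adjusted p = 0.0411). P100 against lysate gave 0.50 ± 0.49 (adjusted p = 0.441), P40 against lysate -0.085 ± 0.49 (adjusted p = 0.903) and P100 against P40 0.59 ± 0.45 (adjusted p = 0.445).

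The ratio of the arms is taken inside a library, so scaling between libraries does not enter it. In S100 the 5p arm was the larger one in all 3 libraries, with 12159, 14621 and 11132 counts of the 5p arm in replicates 2, 3 and 4 beside 3813, 4310 and 4429 counts of the 3p arm. The 3p arm was the larger one in all 4 P100 libraries, all 4 P40 libraries and all 3 lysate libraries. Total exRNA was divided, with the 5p arm larger in replicates 3 and 4 and the 3p arm larger in replicates 1 and 2. The capture of each arm during library preparation was not measured, so a ratio of counts is not a ratio of molecules, and the comparisons below concern how it differed between groups.

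As a share of the counts of both arms, miR-423-5p reached 76.1% (exact 95% binomial interval 75.5% to 76.8%), 77.2% (76.6% to 77.8%) and 71.5% (70.8% to 72.2%) in S100 replicates 2, 3 and 4. In P100 replicates 1 to 4 it was 34.3% (30.7% to 38.0%), 30.5% (27.2% to 33.9%), 32.9% (29.7% to 36.3%) and 48.1% (42.1% to 54.0%), and in P40 replicates 1 to 4 36.7% (29.4% to 44.4%), 32.0% (26.1% to 38.5%), 36.2% (33.4% to 39.1%) and 41.5% (36.6% to 46.5%). Although both arms were higher in P40 replicates 3 and 4 than in replicates 1 and 2, the share of the 5p arm in P40 spanned only 32.0% to 41.5%. Total exRNA replicates 1 to 4 had 40.6% (35.3% to 46.0%), 42.6% (40.3% to 45.0%), 57.7% (53.4% to 61.9%) and 71.8% (66.6% to 76.6%), and lysate replicates 1 to 3 had 31.5% (28.5% to 34.6%), 35.5% (33.8% to 37.2%) and 24.0% (21.0% to 27.1%). The intervals cover counting error only, with each count taken as independent. Those of total exRNA replicates 3 and 4 overlapped neither each other nor those of replicates 1 and 2, and replicate 4 reached the range of S100. Within lysate, the interval of replicate 3 lay below those of replicates 1 and 2.

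**Figure D2:**
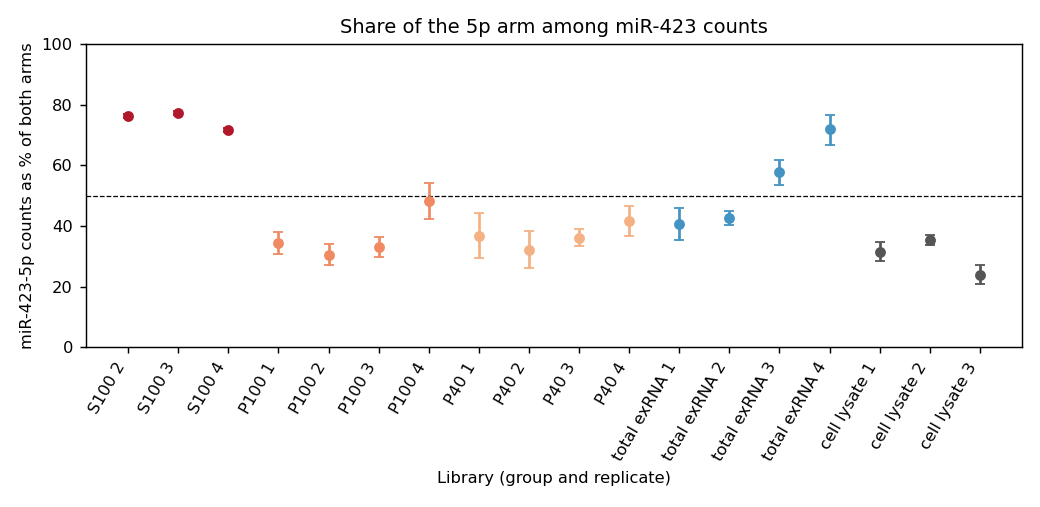
Counts of miR-423-5p as a percentage of the counts of both arms in each of the 18 libraries, with exact 95% binomial intervals and a dashed line at equal counts. S100 libraries lie between 71.5% and 77.2%, P100, P40 and lysate libraries below the line, and total exRNA spreads between 40.6% and 71.8%.

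The geometric mean of the ratio of 5p to 3p counts was 3.01 in S100, 0.568 in P100, 0.576 in P40, 1.15 in total exRNA and 0.430 in lysate. The difference between groups was tested with edgeR's quasi-likelihood test on the paired counts of the arms, fitted to the 35 hairpins with both arms tested and adjusted over them. The log2 ratio was higher in S100 than in lysate by 2.80 ± 0.53 (SE; adjusted p = 0.000142), in a comparison in which 25.7% of hairpins were called towards the 5p arm and 17.1% towards the 3p arm. Between the geometric means of these 2 groups the difference was 6.99-fold. The log2 ratio was higher in S100 than in P100 by 2.41 ± 0.50 (edgeR adjusted p = 0.000550, 22.9% of hairpins). Against P40 it was higher by 2.38 ± 0.50 (edgeR adjusted p = 0.00107, 20.0% of hairpins). No S100 library overlapped with those of lysate, P100 or P40. Within batch numbers the ratio was therefore necessarily higher in S100, in 2 of 2, 3 of 3 and 3 of 3 batches.

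The exact two-sided permutation test over libraries gave p = 0.1 for S100 against lysate and 0.0571 for S100 against P100 and against P40, the smallest values that 3 libraries against 3 and 3 against 4 allow, or 0.143 each after Benjamini-Hochberg adjustment over the 10 comparisons. Leaving out any library of the 2 groups kept the difference between 2.58 and 2.98 for S100 against lysate, 2.29 and 2.64 against P100 and 2.29 and 2.51 against P40, with the test passed each time.

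Total exRNA lay in between. Its log2 ratio was higher than in lysate by 1.40 ± 0.50 (edgeR adjusted p = 0.0411, 14.3% of hairpins called towards the 5p arm). The libraries of total exRNA and lysate did not overlap, so the ratio was necessarily higher in 3 of 3 batches. In S100 the ratio stood higher than in total exRNA by 1.40 ± 0.50 (edgeR adjusted p = 0.0307, 20.0% of hairpins), with overlap of libraries. Neither call was firm. With the replicate number as a block the first became 1.25 (adjusted p = 0.0950). It did not pass without total exRNA replicate 3 or 4 or without any single lysate library (1.04 to 1.58, adjusted p = 0.0542 to 0.131). The second did not pass without any single S100 library or without total exRNA replicate 1 or 2 (1.15 to 1.53, adjusted p = 0.0532 to 0.105). In S100 replicate 4 and total exRNA replicate 4, of the same batch, the ratios were 2.51 and 2.55. The exact permutation p was 0.0571 for total exRNA against lysate and 0.114 for S100 against total exRNA.

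Between the pellets and against lysate or total exRNA the ratio did not pass. The difference in log2 ratio was 0.39 ± 0.50 for P100 against lysate (edgeR adjusted p = 0.534; 14.3% of hairpins called in either direction), 0.42 ± 0.50 for P40 against lysate (adjusted p = 0.621; 25.7%) and -0.029 ± 0.46 for P100 against P40 (adjusted p = 0.950; 8.57%). Against total exRNA it was -1.01 ± 0.47 in P100 (adjusted p = 0.144; 11.4%) and -0.98 ± 0.47 in P40 (adjusted p = 0.196; 2.86%), and both pellets were lower in 4 of 4 batches. The highest P100 ratio, 0.926 in replicate 4, belonged to the P100 library with the fewest counts (10017).

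Among the 35 hairpins miR-423 had the seventh largest rise towards the 5p arm in S100 against lysate, beside a median difference of 0.28 and a range from -6.43 to 5.96. Arms were paired by miRNA name, so the counts of a name made at several loci were not separated. Called differences of a larger size went both ways and rested on fewer counts, as the 5 largest show. miR-455, with 224 counts of the 5p and 84 of the 3p arm in S100 against 33 and 636 in lysate, had a difference of 5.96 ± 0.68 (edgeR adjusted p = 2.29e-07). miR-194, a gut epithelial miRNA, had 668 and 26 in S100 against 409 and 1096 in lysate (5.69 ± 0.64), and miR-574 had 1067 and 225 in S100 against 28 and 129 in lysate (4.20 ± 0.73). Towards the 3p arm moved miR-9, with 44 and 240 in S100 against 93 and 6 in lysate (-6.43 ± 0.99), and miR-338, with 48 and 3178 in S100 against 69 and 65 in lysate (-6.02 ± 1.14). For miR-423 the summed counts were 37912 and 12552 in S100 against 1566 and 3212 in lysate.

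A change of the larger arm, in which all 3 S100 libraries favoured 1 arm and all 3 lysate libraries the other, was seen in 8 of the 35 hairpins, miR-423 included, and in 15 hairpins the same arm was the larger one in all 18 libraries. With 62616 counts of both arms over the 18 libraries, miR-423 was the second most abundant of the 35 hairpins, after miR-22, whose 3p arm was larger in every library.

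**Figure D3:**
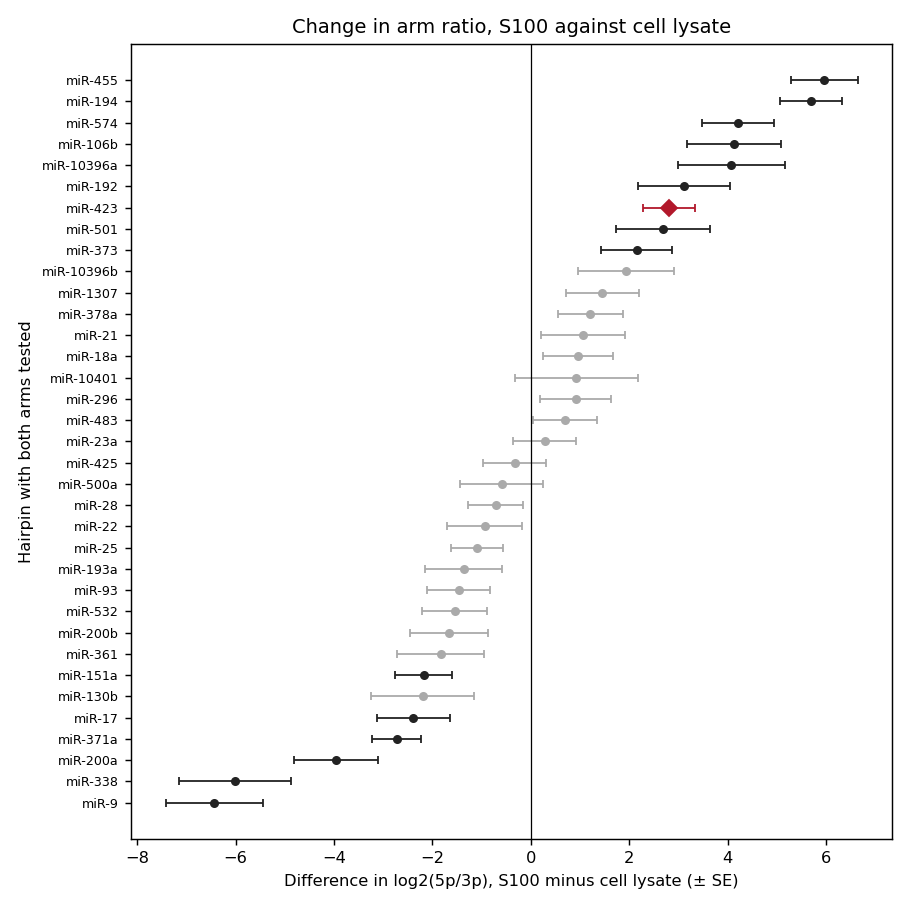
Difference in log2 ratio of 5p to 3p counts, S100 minus cell lysate, for the 35 hairpins with both arms tested (bars are ± SE). The red diamond is miR-423 at 2.80, black points passed the test and grey points did not, and values right of 0 mean a larger part of the 5p arm in S100.

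miRNAs with a pattern most like each arm were ranked by Pearson's r of log2 CPM over the 18 libraries, as a description in which the libraries of a group count separately and S100 stands apart. For miR-423-5p these were miR-296-5p (r = 0.888), miR-221-3p (0.885), miR-320a-3p (0.881), miR-22-3p (0.868) and miR-320b (0.857). Over the 15 libraries outside S100 the values were lower, at 0.571, 0.680, 0.708, 0.396 and 0.703, so part of the likeness lay in the S100 libraries. For miR-423-3p they were miR-501-3p (0.909), miR-92a-1-5p (0.838), miR-320a-3p (0.792), miR-320b (0.786) and miR-483-5p (0.743), with 0.936, 0.959, 0.900, 0.850 and 0.816 outside S100. The arms themselves had r = 0.608 over 18 libraries and 0.712 over 15. Over the 15, this was slightly above the highest value of the 5 named for miR-423-5p (0.708). In the order over 18 libraries, miR-423-3p came 37th for miR-423-5p and miR-423-5p came 11th for miR-423-3p.

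Because miR-423-3p serves as a reference in qPCR of body fluids, both arms were set beside 7 other miRNAs used in that way. The mean log2 CPM of the 5 groups spanned 3.28 for miR-423-5p and 2.00 for miR-423-3p, against a median of 2.50 over the 227 miRNAs. Of the 7 others, miR-24-3p had the smallest span of all miRNAs tested (0.33), with a mean ± SD of 3517 ± 198 CPM in S100, 2938 ± 1164 in P100, 3313 ± 498 in P40, 3220 ± 775 in total exRNA and 3103 ± 1468 in lysate. miR-425-5p spanned 0.68, miR-93-5p 1.14 and miR-484 1.31, while miR-191-5p (2.15), miR-16-5p (2.34) and miR-103a-3p (4.68) spanned more than miR-423-3p.

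In S100 against lysate none of the 7 was called higher and 4 were called lower in edgeR's test, with a median log2 fold change of -0.98 beside -0.040 over all miRNAs, and 30.0% of all miRNAs were called lower. The 4 were miR-103a-3p (-4.71 ± 0.43), miR-191-5p (-2.16 ± 0.31), miR-16-5p (-1.58 ± 0.32), which is also an erythrocyte miRNA, and miR-93-5p (-0.98 ± 0.36). miR-423-5p (3.09) thus moved away from each of them in that comparison. In P100 against lysate 0 of the 7 were higher and 2 lower (16.7% and 20.7% of all miRNAs), in P40 0 and 3 (13.7% and 13.2%), and in total exRNA 1 and 3 (18.9% and 16.3%).

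**Figure D4:**
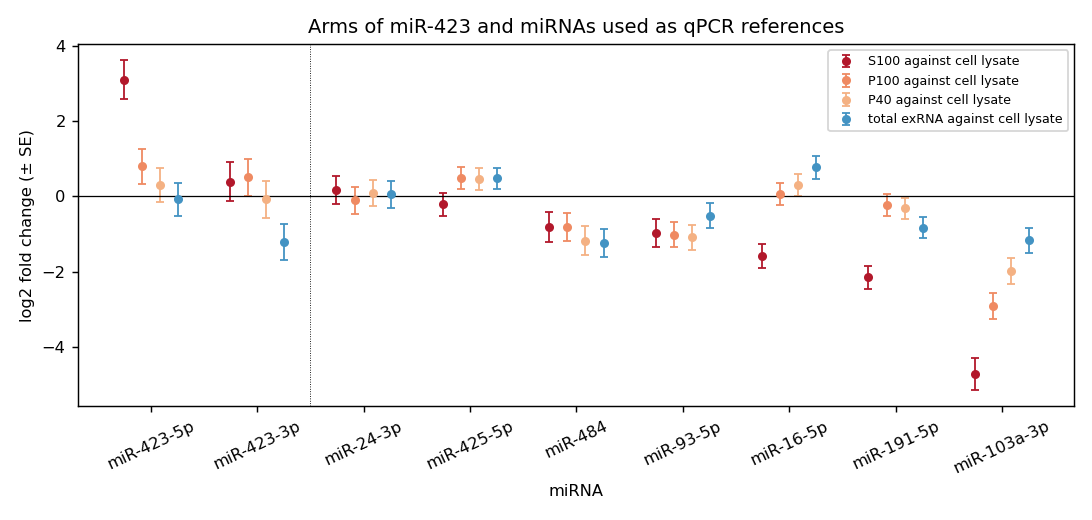
log2 fold change against cell lysate (± SE) of both miR-423 arms, left of the dotted line, and of 7 miRNAs used as qPCR references, in S100, P100, P40 and total exRNA. miR-423-5p in S100 stands at 3.09, miR-24-3p lies near 0 in all 4 comparisons and miR-103a-3p in S100 at -4.71.

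The erythrocyte and liver markers miR-451a, miR-486-5p, miR-144-3p and miR-122-5p summed to 0.0413% to 0.0634% of counts in S100, 0.180% to 0.305% in P100, 0.276% to 0.403% in P40, 0.134% to 0.242% in total exRNA and 0.0535% to 0.102% in lysate, where miR-451a and miR-144-3p had 0 counts. The sum was thus lower in every S100 library than in any pellet or total exRNA library. In S100 against P100, P40 and total exRNA, 2 of the 3 members tested were called lower each time and 0 higher. Of the 227 miRNAs, 71, 63 and 77 were called lower in these comparisons. Against lysate the members did not move together. In S100 against lysate, edgeR's test called hsa-miR-486-5p lower (-4.01 ± 0.60, adjusted p = 5.09e-06) and hsa-miR-451a higher (38 summed counts in S100 against 0 in lysate, adjusted p = 0.00190). The liver marker hsa-miR-122-5p did not pass, with 508, 325 and 351 CPM in S100 replicates 2 to 4 against 244, 170 and 612 CPM in lysate replicates 1 to 3. In total exRNA the sum was 0.242%, 0.201%, 0.191% and 0.134% in replicates 1 to 4, the opposite order to the ratio of the arms (0.683, 0.743, 1.36 and 2.55). Within lysate the orders were also opposite, whereas within S100, P100 and P40 they were not. Lysate, with low sums, had ratios of 0.315 to 0.549. The part of these markers in the ratio of the arms was not tested.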

How the data were processed

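The authors deposited unnormalized counts for each mature human miRNA with at least 1 count in a library; absent names were taken as 0. The tools named per the submitters' processing notes are cutadapt 1.16, FastQC and Bowtie2, with GRCh38 as the build. The alignment parameters, the filter before counting and the rule for reads matching several miRNAs are not given in the sources used here. The kit was RealSeq-AC, with 50-base single reads, per the labels. Without molecular identifiers, copies of the same molecule could not be told apart. The intervals take each count as independent and cover counting error only. Libraries with under 100 detected miRNAs were left out.

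The members and lists were chosen with earlier results of these data known. Levels were fitted in R 4.3.3 with edgeR 4.0.16 (filterByExpr, minimum count 10 and total 15; TMM; robust quasi-likelihood model of the 5 groups; common biological coefficient of variation 0.419). The 227 miRNAs kept held 98.5% to 99.1% of the counts of each library. Arm ratios were fitted with a term for each library and arm-by-group terms. p was adjusted by Benjamini-Hochberg over the 227 miRNAs or 35 hairpins, and a call is an adjusted p below 0.05. Each SE is the log2 fold change divided by the square root of F, and a prior count of 2 entered log2 CPM. Both fits were run on simulated data with the same dispersion for every miRNA, as a check of the code and not of the calls here. Alternatives used DESeq2 1.42.0, limma 3.58.1, thinning to 10017 counts, other scaling and filters, and left-out libraries. Arm pairing was predicted with ViennaRNA 2.7.2.

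In the labels batch and replicate numbers coincide, which pairs samples across groups. Deviations from group means of the 32 same-numbered pairs correlated at -0.57 to 0.31 (median -0.0019). Named miRNAs are both arms, both arms of miR-3184, miRNAs sharing a seed, the 5 most like each arm, up to 5 called hairpins with a larger ratio change in S100 against lysate, 7 qPCR reference miRNAs and the markers.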

Additional observations from a re-analysis of the deposited data

How the results depend on the processing

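The 4 higher levels of miR-423-5p in S100, the higher miR-423-3p in S100 and P100 against total exRNA and the higher arm ratio in S100 against lysate, P100 and P40 passed under every alternative and without any single library. The higher ratio in total exRNA against lysate was 1.45 after thinning, 1.25 with the replicate block, 1.42 in limma with 0.5 added, 1.41 without the low-count filter and 1.41 when the other groups were left out of the fit, none passing, and 1.04 to 1.66 without single libraries. The ratio in S100 against total exRNA was 1.38 in limma with 0.5 added and 1.40 without the filter, neither passing, and 1.15 to 1.77 without single libraries. The replicate block changed no other call.

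Without the filter miR-423-3p passed in S100 against lysate (1.14) and P40 (1.13). Every miRNA with a count was then tested, and 131 were called higher and 58 lower against lysate. With the filter, 73 and 68 of the smaller set of 227 miRNAs were called, so these counts are not on the same set. Log2 fold changes in S100 against lysate were also compared between fits, over the miRNAs shared with the main fit. Their median shift was 0.69 without the filter, 0.41 in DESeq2 and 0.18 with library size only. Leaving out lysate replicates 1, 2 or 3 gave median shifts of 0.32, 0.29 and 0.31. Leaving out S100 replicates 2, 3 or 4 gave 0.38, 0.40 and 0.37. Of values that had not passed, some changed sign. The 3p arm in P40 against lysate was 0.031 in DESeq2, 0.34 with library size only, 0.0066 without the filter, 0.077 after thinning, 0.025 with the replicate block, and -0.51 to 0.30 without single libraries. The 5p arm in total exRNA against lysate was 0.14 in DESeq2, 0.29 with library size only, 0.24 without the filter, 0.029 after thinning, 0.092 when the other groups were left out of the fit, and -0.48 to 0.36 without single libraries. The 3p arm in S100 against P100 was 0.095 in DESeq2, 0.53 without the filter, 0.016 when the other groups were left out of the fit, and -0.29 to 0.15 without single libraries. The ratio in P100 against P40 was 0.019 after thinning and -0.26 to 0.095 without single libraries.

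Chosen after seeing the data, leaving out P40 replicates 1 and 2 gave 0.40 for the 3p arm in P40 against lysate, 1.48 against total exRNA (passing) and -0.077 for the 5p arm in P100 against P40. Leaving out P40 replicates 3 and 4 gave -0.60 and -0.68 for the 5p arm in P40 against lysate and total exRNA, 1.21 for the 3p arm in S100 against P40 and 1.51 for the 5p arm in P100 against P40 (both passing), and 0.11 for the ratio in P100 against P40. Without single libraries the 5p arm ranged over 0.58 to 1.30 in P100 against lysate, 0.69 to 1.26 in P100 against total exRNA, -0.068 to 0.70 in P40 against lysate and -0.073 to 0.79 in P40 against total exRNA, and the 3p arm over -1.997 to -0.78 in total exRNA against lysate, 0.61 to 1.91 in P40 against total exRNA and 0.24 to 1.30 in S100 against P40. The 3p arm in S100 against lysate was 0.49 to 1.12, none passing. Causes were not tested.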
